A study of Arabidopsis thaliana with 6 samples.

Results

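Across the chromosome arms of Arabidopsis thaliana, 34 loci that gave low array values in the accession Col gave higher values in the line epiRIL12. They were chosen by their levels. A locus counted when the mean of the 3 Col arrays was under 6 on the log2 scale, the mean of the 3 epiRIL12 arrays was at least 1.5 higher, and the lowest epiRIL12 value lay above the highest Col value. Loci from AT1G35800 to AT1G43799, AT2G04000 to AT2G14999, AT3G29450 to AT3G43829, AT4G03600 to AT4G08350 and AT5G28145 to AT5G35299 had been set aside, as had AT5G17125 (the retrotransposon EVD), AT1G34967 and AT2G15790 (SQN). Of 29670 measured loci, 25863 lay outside these stretches and were none of the 3, and 9100 of those had a Col mean under 6. The other 9066 of these low loci did not meet the rule. Because the Col level, the difference and the gap between the groups chose the 34 loci, their values are given as a description, without a test.

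Each genotype was represented by 3 arrays, epiRIL12 as the line with altered DNA methylation and Col as its reference. Plants of both genotypes were 14 days old, untreated and grown with 16 hours of light, and the labels call the material whole seedlings in one field and rosette leaves in another. epiRIL12 is a single line, and the labels state neither its founder nor its generation. They do not say whether plants were pooled or whether the 3 arrays of a genotype stem from different sowings, so p-values measure only the spread between these samples, which may be technical.

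DNA methylation keeps transposable elements and their remnants silent in plants, and the enzyme MET1 copies methylation at CG sites to the new strand when DNA is replicated. Epigenetic recombinant inbred lines (epiRILs) are bred by crossing a wild-type plant with a mutant that has lost much of its methylation. Each line inherits a mosaic of chromosome segments, some of which carry the reduced methylation of the mutant parent for generations. Most transposable elements of Arabidopsis lie around the centromeres, and those on the arms stand between ordinary genes. In the RefSeq gene table used for annotation, transposable elements have no class of their own, and a pseudogene there may or may not be one.

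Members of the set were mostly pseudogenes, and their differences between the genotypes were large because the rule required it. By annotation, 27 of the 34 were pseudogenes and 7 were protein-coding, and none belonged to the class of transcribed pseudogenes. The median difference, epiRIL12 minus Col, was 2.61 on the log2 scale (6.12-fold), against a median of -0.02 over all loci and -0.04 over the 9066 low arm loci outside the set. The differences ran from 1.505 to 6.91, and 14 members differed by 8-fold or more and 5 by 16-fold or more. Group means had a median of 7.37 in epiRIL12, with a range of 5.74 to 12.6, and of 4.65 in Col, with a range of 3.85 to 5.80. The gap between the lowest epiRIL12 and the highest Col value was more than 1 for 30 members, with a median of 2.23. Groups without overlap and higher in epiRIL12 were found at 5.19% of all loci and at 3.67% of low arm loci, and the rule required this of every member. Only 1 member, SADHU8-1, carries a gene symbol in the gene table, and the others are called by their locus names.

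**Figure D1:**
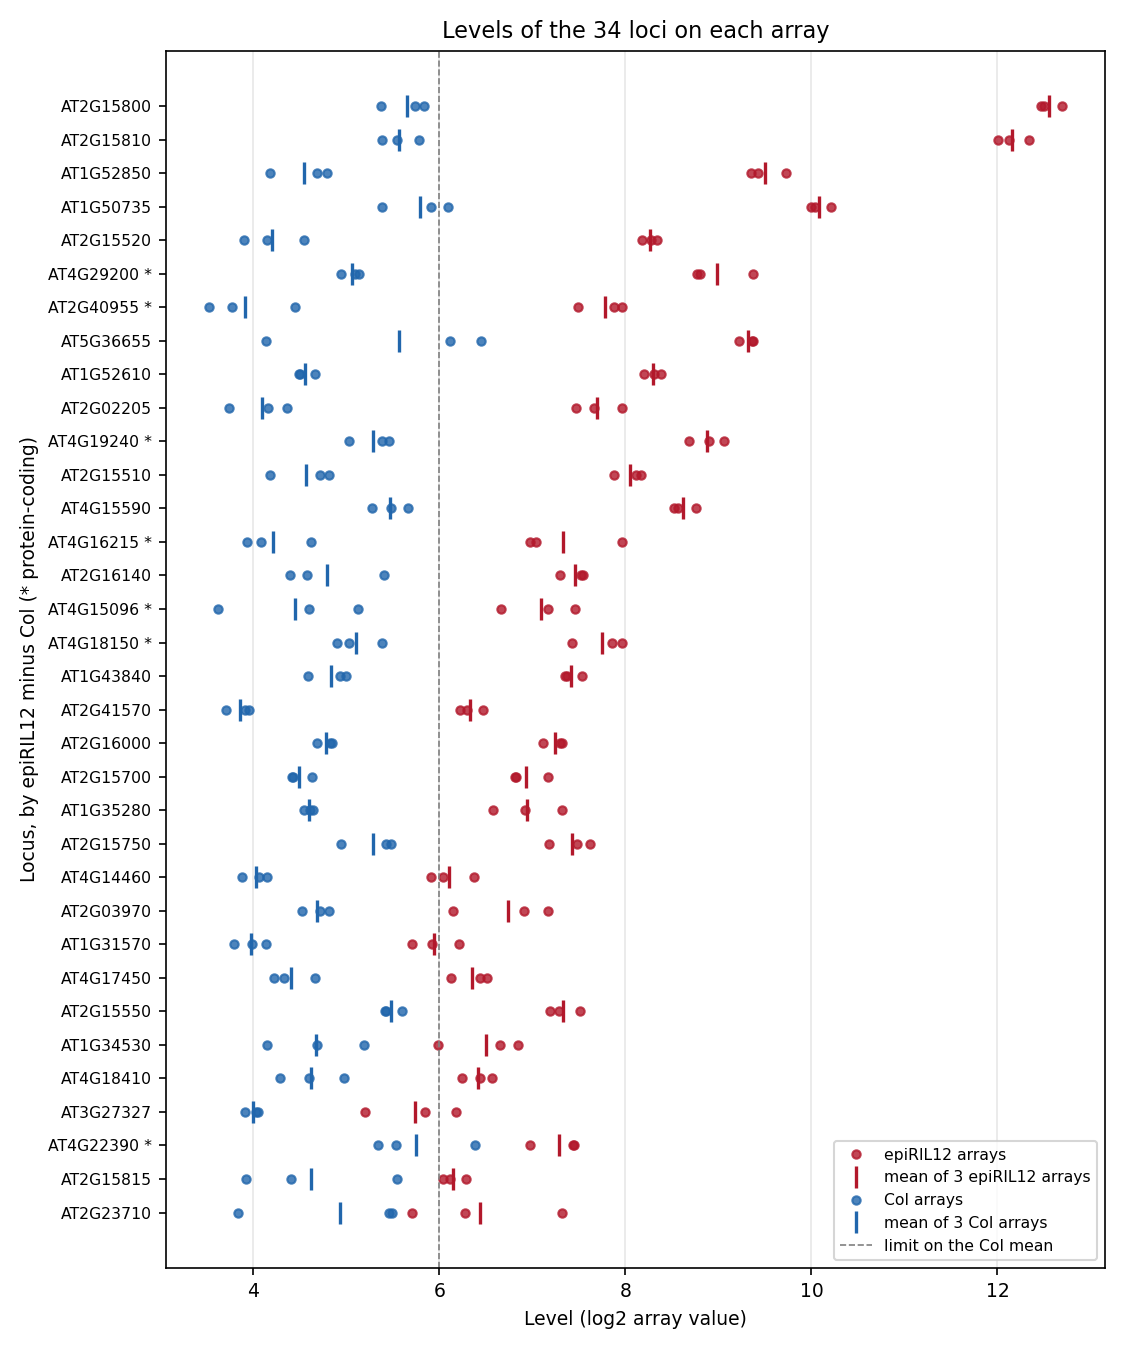
Log2 array values of the 34 loci (rows, largest difference on top) on the 3 epiRIL12 arrays and the 3 Col arrays, with a tick at each group mean and a dashed line at the limit of 6 on the Col mean. Red epiRIL12 points lie to the right of the blue Col points in every row, as the rule demands, and the distance is 6.91 in the top row and 1.505 in the bottom row.

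The description of these loci as silent arm loci has limits. The sources give no background level, so "silent" means only a low array value. In Col, 19 to 21 of the 34 members lay below the lower quartile of their array and none above its median. On the epiRIL12 arrays, 24, 24 and 25 members lay above the array median. A value near background makes a fold a difference of array values and not a ratio of RNA amounts. In whole tissue, transcription in more cells and more RNA per cell cannot be told apart. The word "arm" also has a limit, since 11 members lay within 100 measured loci of a stretch that had been set aside.

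Over all loci, the arrays were alike in their medians (6.80 to 6.84), and Pearson's r across loci was 0.988 to 0.990 between arrays of a genotype and 0.979 to 0.982 between genotypes. With limma (two-sided, Benjamini-Hochberg adjusted p under 0.05 over all loci), 264 loci passed upward (0.89%) and 25 downward (0.0843%). Of the members, 30 passed upward, beside the 0.89% of all loci, and 26 to 29 did with any single array left out. With all arrays, AT1G34530, AT4G22390, AT2G15815 and AT2G23710 did not pass. The rule used this same contrast, so the count adds nothing to the choice of members. Among all 25863 arm loci 49 passed upward (0.189%) and among the 9100 low ones 43 did (0.473%). The 19 that were no member comprised 13 with a Col mean under 6 and 6 with a higher one.

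The densest group lay on chromosome 2 just beyond the stretch that had been set aside, where 10 members stood within 68 consecutive loci from AT2G15510 to AT2G16140. AT2G15800, a pseudogene, gave 12.47, 12.50 and 12.69 on the epiRIL12 arrays and 5.37, 5.73 and 5.84 on the Col arrays. It had the largest difference of the set (6.91, SE 0.15, 120-fold). The next locus, AT2G15810, also a pseudogene, gave 12.003, 12.12 and 12.34 in epiRIL12 and 5.78, 5.55 and 5.39 in Col. Its difference was 6.58 (SE 0.14), and on both loci the spread among the 3 arrays of a genotype was small beside the difference. AT2G15815, the third pseudogene in a row, gave 6.11, 6.29 and 6.04 in epiRIL12, against 4.40, 3.92 and 5.54 in Col. Its difference of 1.53 (SE 0.39) was much smaller, and its Col values were spread widely (SD 0.83, n = 3).

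SQN, the protein-coding neighbour on the other side of AT2G15800, encodes a cyclophilin known for its part in microRNA activity. Its level was 12.18 in epiRIL12 and 8.78 in Col, and it rose by 3.40 (SE 0.11, limma adjusted p = 2.8e-05). In the annotation SQN and AT2G15800 overlap by 74 bases. The labelled target was double-stranded and does not keep strand, so over these shared bases the signals of SQN and AT2G15800 cannot be told apart. Apart from SQN, the only overlapping annotation found for a member was an snRNA gene that was not measured, at AT2G15550.

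A second pair of adjacent members opened the same stretch. AT2G15510 gave 8.11, 7.87 and 8.16 in epiRIL12 and 4.82, 4.71 and 4.18 in Col, a difference of 3.48 (SE 0.19). AT2G15520 gave 8.18, 8.34 and 8.28 in epiRIL12 and 4.55, 3.90 and 4.14 in Col, a difference of 4.07 (SE 0.17). No other member had epiRIL12 arrays so close together (SD 0.079). The remaining members of the stretch were AT2G15550 (1.85), AT2G15700 (2.44), AT2G15750 (2.14), AT2G16000 (2.46) and AT2G16140 (2.66), all pseudogenes.

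Between these loci most others stayed near 0. Of 19 pseudogenes with a low Col mean in the stretch, 10 were members, and the other 9 had a median difference of -0.03. Of the 18 low protein-coding loci there, 0 were members, and over all loci of the stretch outside the set the median was -0.08. Besides SQN, 1 further locus there passed the test, the pseudogene AT2G15870 with a difference of 1.43 (SE 0.15, limma adjusted p = 0.0066), just short of the limit of 1.5. The pseudogene AT2G15940 gave 5.40, 5.94 and 5.52 in epiRIL12 and 4.76, 4.58 and 4.06 in Col, without overlap, and its difference of 1.15 (SE 0.22) did not pass (limma adjusted p = 0.12).

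**Figure D2:**
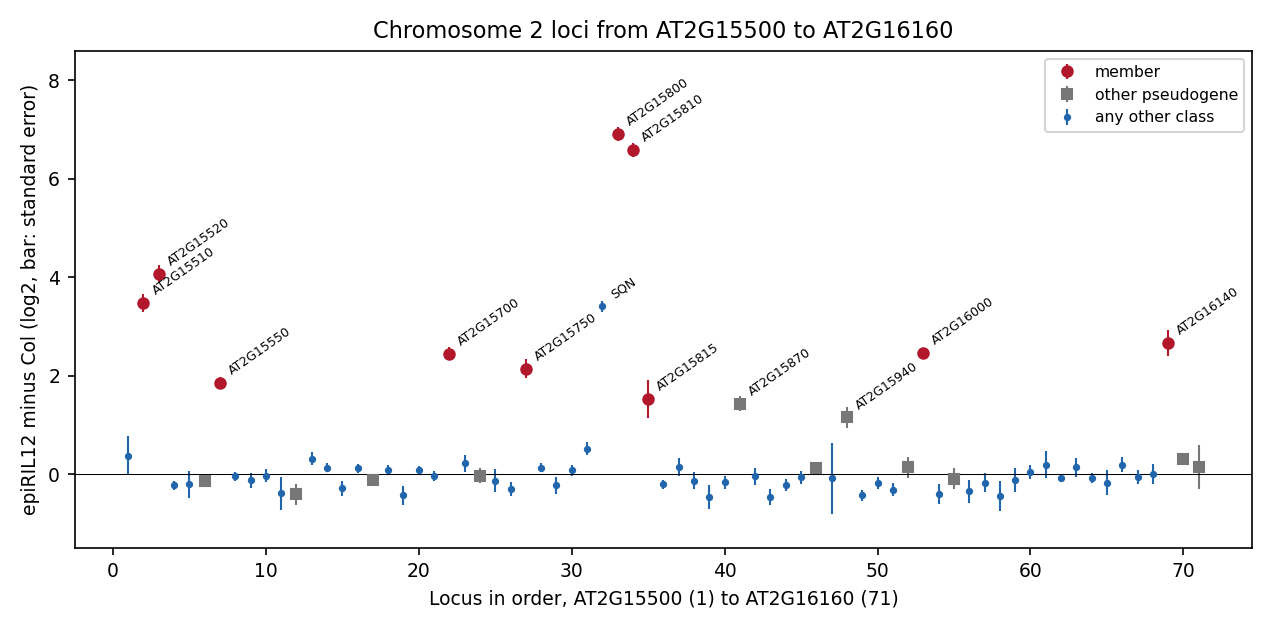
Differences between epiRIL12 and Col (log2, bars are limma standard errors) for the 71 loci from AT2G15500 to AT2G16160 in locus order. The 10 members (red) and SQN stand out singly or in short runs. The other blue loci, of any class but pseudogene and mostly protein-coding, lie near 0. AT2G15870 sits just below the limit of 1.5 and AT2G15940 lies at 1.15.

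Chromosome 1 held 7 members, all pseudogenes, on both sides of its centromeric stretch. AT1G52850 gave 9.43, 9.35 and 9.72 in epiRIL12 and 4.79, 4.68 and 4.18 in Col, a difference of 4.95 (SE 0.19, 31-fold). AT1G52610, which stands 28 loci before it, gave 8.30, 8.20 and 8.39 in epiRIL12 and 4.49, 4.51 and 4.67 in Col (difference 3.74, SE 0.099). Both were the only low pseudogenes among the 29 loci they span, and none of the 9 low protein-coding loci between them met the rule. SADHU8-1 (AT1G50735), a member of the Sadhu family of non-coding retrotransposons, gave 10.00, 10.04 and 10.21 in epiRIL12 and 5.91, 5.39 and 6.09 in Col. Its difference was 4.28 (SE 0.19, 19.5-fold), and its Col mean of 5.80 was the highest of the set. AT1G43840 (2.58), AT1G35280 (2.34) and AT1G34530 (1.82) lay within 122 loci of the excluded stretch, and AT1G31570 (1.97) lay 423 loci from it.

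The protein-coding members were nearly all on chromosome 4, which carried 6 of the 7 together with 4 pseudogenes. AT4G29200 gave 8.77, 8.80 and 9.37 in epiRIL12 and 4.94, 5.09 and 5.14 in Col (difference 3.92, SE 0.18, 15.2-fold). AT4G19240 gave 8.90, 8.68 and 9.06 in epiRIL12 and 5.46, 5.03 and 5.38 in Col (difference 3.59, SE 0.15). Both had Col values within a narrow range and all epiRIL12 values more than 3 above them. AT4G16215 gave 7.04, 6.98 and 7.96 in epiRIL12, with the third array well above the others, and 4.62, 4.08 and 3.93 in Col (difference 3.11, SE 0.31). AT4G18150 gave 7.43, 7.97 and 7.86 in epiRIL12, against 4.90, 5.38 and 5.03 in Col (difference 2.65, SE 0.19).

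In the other protein-coding members of chromosome 4 the Col arrays were spread more widely. AT4G15096 gave 6.66, 7.16 and 7.46 in epiRIL12 and 5.13, 4.60 and 3.62 in Col (difference 2.65, SE 0.40). AT4G22390 gave 7.44, 6.98 and 7.44 in epiRIL12 and 5.53, 6.39 and 5.34 in Col, so that a single Col value came within 0.59 of the lowest epiRIL12 value (difference 1.53, SE 0.29). The gene table gives none of these genes a symbol. The 4 pseudogenes were AT4G15590 (3.15), AT4G14460 (2.08), AT4G17450 (1.95) and AT4G18410 (1.79).

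From AT4G14460 to AT4G19240 the 8 members of chromosome 4 were spaced out among ordinary genes, and the interval also held 3 loci that fell. In the part from AT4G14460 to AT4G16215, 2 of 5 low pseudogenes and 2 of 77 low protein-coding loci were members. In the part from AT4G17450 to AT4G19240 the counts were 2 of 5 and 2 of 72. Loci outside the set had a median difference of -0.06 in the first part and -0.04 in the second. Between the parts lies ATCOPIA4 (AT4G16870), a Copia retrotransposon of the RPP5 immune receptor cluster, which fell to 6.00 in epiRIL12, against 8.80 in Col (difference -2.80, SE 0.11, limma adjusted p = 6.9e-05). RPP5 (AT4G16950), a disease resistance gene that also lies between the parts, fell to 8.12 in epiRIL12, against 11.7 in Col (difference -3.62, SE 0.12, limma adjusted p = 3.3e-05). The third was ML3 (AT4G18120), a transcribed pseudogene 3 loci before AT4G18150, with 8.24 in epiRIL12 and 8.84 in Col (difference -0.61, SE 0.090, limma adjusted p = 0.038).

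Beyond its dense stretch, chromosome 2 held 5 more members. AT2G40955, the protein-coding member of this chromosome, gave 7.49, 7.88 and 7.96 in epiRIL12 and 3.77, 4.45 and 3.52 in Col (difference 3.86, SE 0.26, 14.6-fold). It lay 2757 loci from the excluded stretch, and only AT2G41570 (2.47), at 2821 loci, lay farther out. AT2G02205, a pseudogene on the other side of the centromere, gave 7.46, 7.67 and 7.96 in epiRIL12 and 4.37, 4.16 and 3.74 in Col (difference 3.61, SE 0.20). AT2G03970 (2.06) lay 4 loci from the excluded stretch. AT2G23710 had the smallest difference of the set (1.505, SE 0.57), with 5.70, 7.32 and 6.28 in epiRIL12 and 5.46, 3.84 and 5.49 in Col. Its epiRIL12 arrays were the most widely spread of any member (SD 0.82, n = 3), and its groups were only 0.21 apart. The difference was 0.96 without Col replicate 2 and 1.06 without epiRIL12 replicate 2, and in both cases the locus no longer met the rule.

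Chromosomes 3 and 5 had 1 member each. AT5G36655 gave 9.36, 9.23 and 9.37 in epiRIL12 and 6.45, 6.11 and 4.13 in Col (difference 3.75, SE 0.57). Its epiRIL12 arrays lay close together while the Col arrays spread more than at any other member (SD 1.25, n = 3), and 2 of the 3 Col values were above 6. The member of chromosome 3, AT3G27327, gave 5.84, 5.20 and 6.18 in epiRIL12 and 4.05, 4.02 and 3.91 in Col (difference 1.75, SE 0.24).

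**Figure D3:**
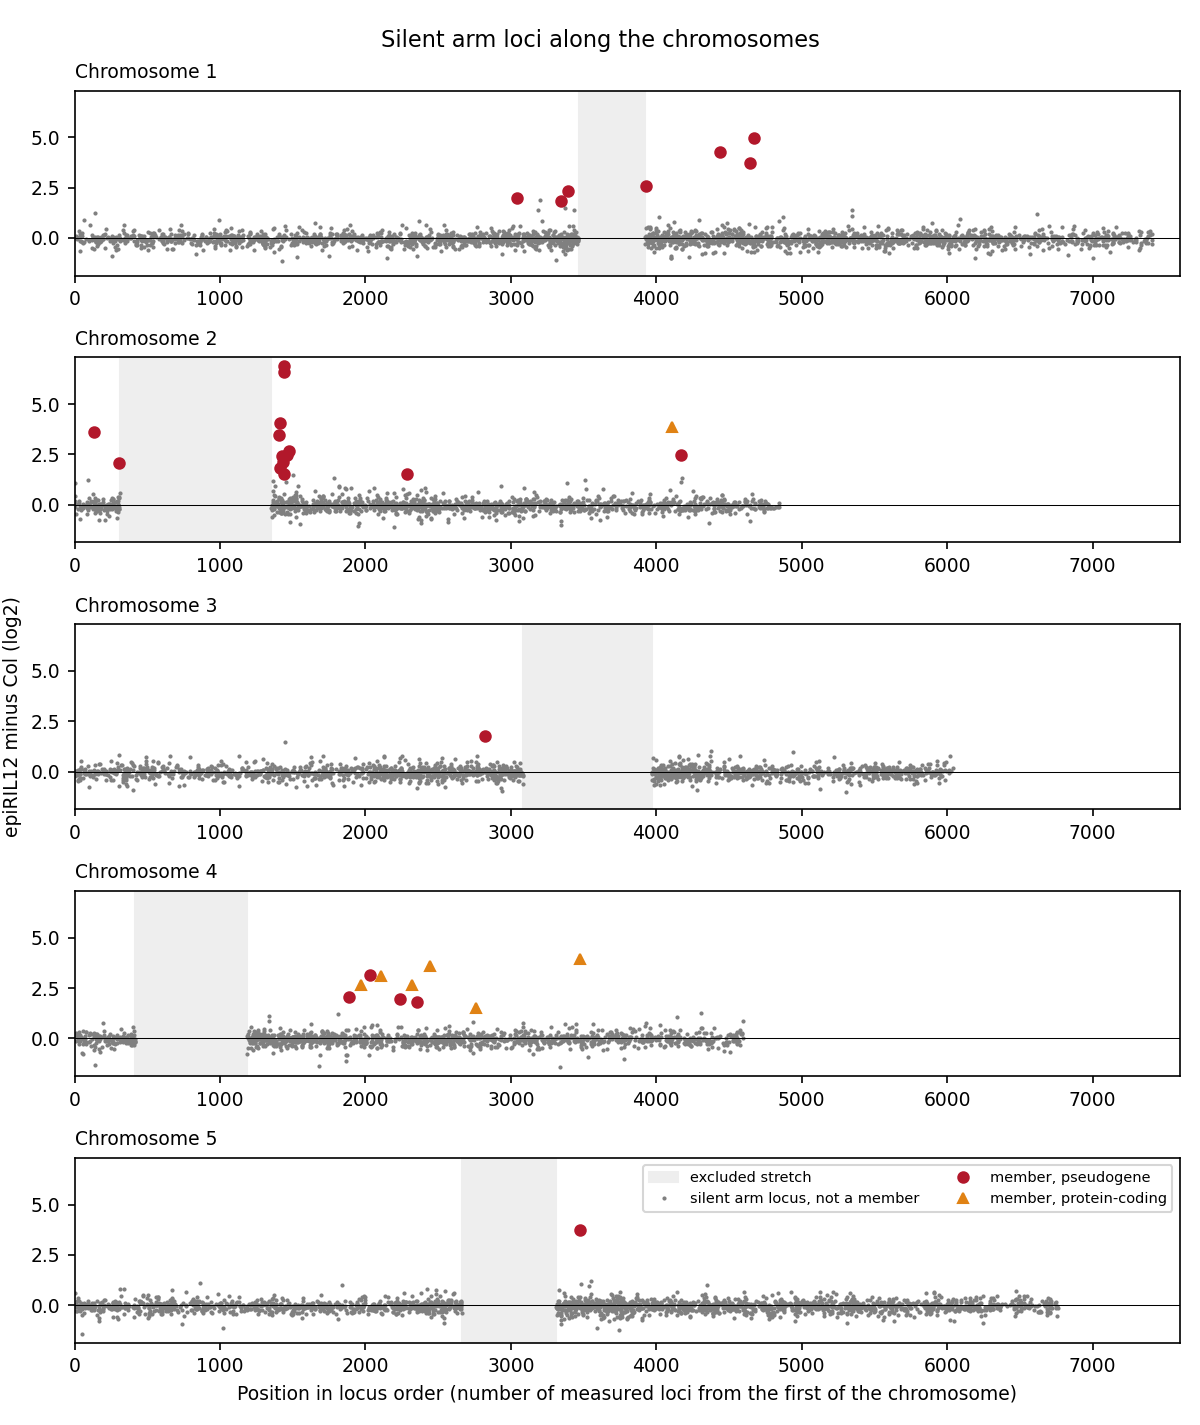
Differences between epiRIL12 and Col (log2) at arm loci with a Col mean under 6, against their position in locus order on the 5 chromosomes, with the excluded stretches shaded. Chromosome 2 shows 15 members, 10 of them stacked at the right edge of its shaded stretch, chromosome 4 shows 10, chromosome 1 shows 7, and chromosomes 3 and 5 show 1 each among grey points near 0.

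Among silent arm loci, pseudogenes held a far larger share of members than protein-coding loci. Of 847 low pseudogenes on the arms 27 were members (3.19%), against 7 of 7720 low protein-coding loci (0.0907%) and 0 of 328 transcribed pseudogenes. Member pseudogenes had a median annotated length of 2204 bases, and the other 820 low arm pseudogenes had one of 2203 bases. The protein-coding members had a median length of 2145 bases, against 1598 bases at the 7713 low protein-coding arm loci outside the set.

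By chromosome, the share of low arm pseudogenes in the set was 3.08% on chromosome 1 (7 of 227), 10.9% on chromosome 2 (14 of 128), 0.680% on chromosome 3 (1 of 147), 3.42% on chromosome 4 (4 of 117) and 0.439% on chromosome 5 (1 of 228). Of the 14 on chromosome 2, 10 came from the dense stretch. The same level criteria were met in the excluded stretches by 153 of 3170 low loci (4.83%), against 34 of 9100 on the arms (0.374%). For pseudogenes alone the shares were 3.19% on the arms and 5.81% in the stretches (143 of 2461). These counts were not tested, since the rule chose the loci by their difference and copies of a repeat family are not independent.

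**Figure D4:**
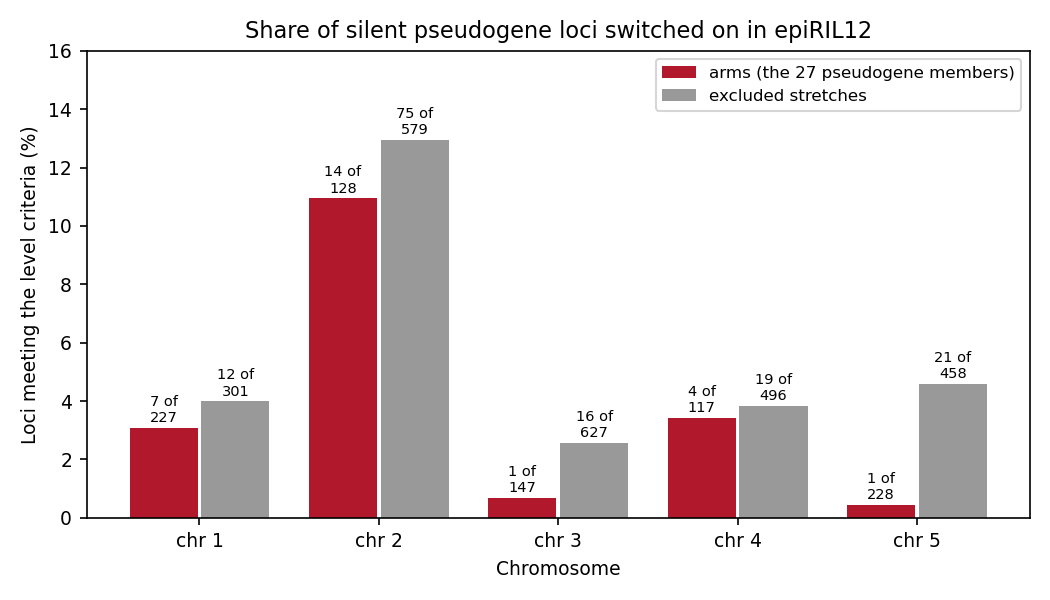
Share (%) of pseudogenes with a Col mean under 6 that met the level criteria, on the arms (red) and in the excluded stretches (grey) of each chromosome, with counts above the bars. Chromosome 2 has the tallest bar in both regions (10.9% on the arms and 12.95% in the stretch), and on chromosomes 3 and 5 the arm bars (0.680% and 0.439%) are far below those of the stretches (2.55% and 4.59%).

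The share of members among low pseudogenes was highest nearest to the excluded stretches. Within 100 loci of a stretch, 11 of 238 low pseudogenes were members (4.62%), 9 of which lay on chromosome 2. Between 100 and 500 loci away the count was 7 of 289 (2.42%), and farther out it was 9 of 320 (2.81%). All 7 protein-coding members lay more than 500 loci away, among 6099 low protein-coding loci there, against 0 of 308 within 100 loci and 0 of 1313 between 100 and 500.

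Most loci next to the members that were not members themselves lay near 0. The first locus on each side in locus order that was itself no member gave 62 neighbours, of which 46 were protein-coding and 12 pseudogenes. Adjacent members were left out, so a neighbour that met the rule could not appear among them. Their median difference was -0.08, 20 lay above 0, and 58 lay within 0.5 of 0. With limma, 2 of the 62 passed upward and 0 downward, beside 0.89% of all loci upward and 0.0843% downward. At an unadjusted p under 0.05 there were 8 of 62, beside 7.04% of all loci. The 2 that passed at the adjusted threshold were SQN and AT2G41580.

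AT2G41580, a pseudogene next to the member AT2G41570, averaged 4.84 in epiRIL12 and 3.72 in Col, and it rose by 1.12 (SE 0.16, limma adjusted p = 0.032). That call was lost when any array but Col replicate 2 was left out (limma adjusted p 0.0536 to 0.144) and with the replicate number as a block (limma adjusted p = 0.20). The locus after it, the protein-coding AT2G41590, rose as well, with 6.43 in epiRIL12 and 5.10 in Col (difference 1.33, SE 0.088, limma adjusted p = 0.00065), so that 3 loci in a row were higher. At AT2G41570 itself the arrays gave 6.22, 6.30 and 6.46 in epiRIL12 and 3.71, 3.91 and 3.95 in Col. ACA4, a calcium pump gene on the other side, had -0.47 (SE 0.092) and did not pass the test (limma adjusted p = 0.13). Cross-hybridisation between neighbours was not tested, since probe sequences were not used here.

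**Figure D5:**
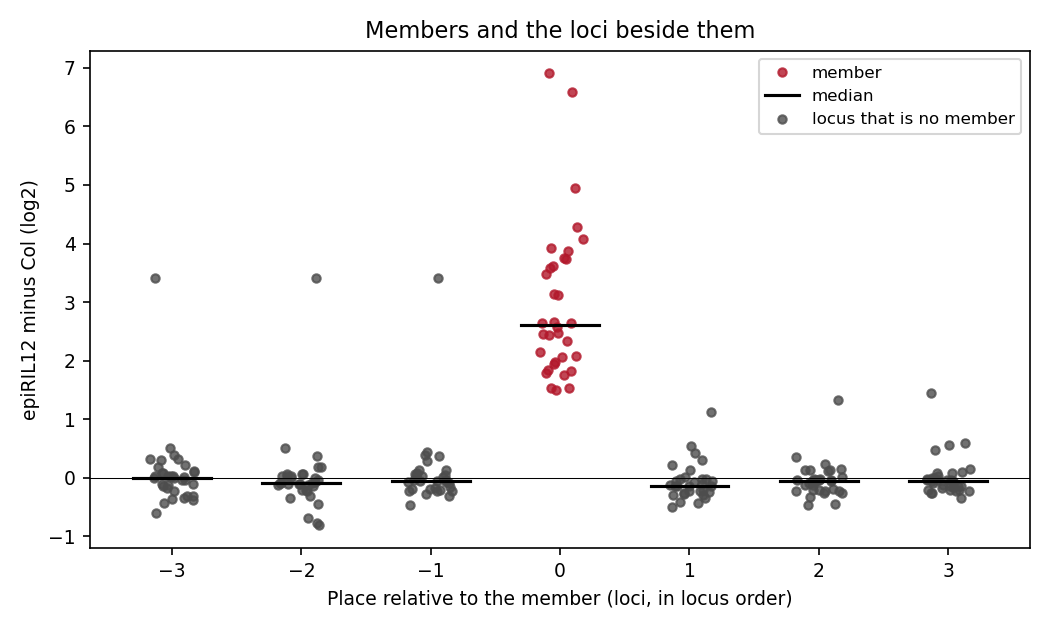
Differences between epiRIL12 and Col (log2) at the 34 members (place 0) and at the loci up to 3 places before and after them, members left out there, with the median of each place as a black line. Values beside the members gather around 0, apart from SQN at 3.40, which appears at places -1, -2 and -3 of 3 adjacent members, and AT2G41580, AT2G41590 and AT4G22415 between 1.12 and 1.45 on the right. ML3, at -0.61 and place -3, is the called fall.

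The limits of the rule cut through a continuous range. Just inside the limit of 1.5 stood AT2G23710 (1.505), AT2G15815 (1.53) and AT4G22390 (1.53), and just outside stood AT2G16410 (1.49), AT1G34904 (1.47) and AT3G14670 (1.45). In all, 24 low arm loci had differences between 1 and 1.5 without overlap. Just inside the limit on the Col mean stood SADHU8-1 (5.80), AT4G22390 (5.75) and AT2G15800 (5.65), and just outside stood AT3G26480 (6.00), AT3G46487 (6.10) and AT4G08710 (6.29). In all, 5 arm loci missed the set by their Col mean alone. Among them was AT1G49080, with 11.77, 11.44 and 11.63 in epiRIL12 and 7.20, 5.40 and 6.58 in Col. AT1G33130 alone missed it by the gap, as its lowest epiRIL12 value lay 0.02 under its highest Col value.

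Turned round, the same criteria were met by 3 arm loci that were low in epiRIL12 and higher in Col. AT3G01345 stood at 5.52 in epiRIL12 and 11.9 in Col (-6.40), AT1G44075 at 4.77 in epiRIL12 and 6.58 in Col (-1.81), and AT1G12880 (NUDT12) at 5.26 in epiRIL12 and 6.82 in Col (-1.56). That makes 3 of 9229 arm loci with an epiRIL12 mean under 6, beside 34 of 9100 with a Col mean under 6. ATCOPIA4 missed the turned criteria only because its epiRIL12 mean of 6.0002 was not under 6.

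Array 3 of epiRIL12 gave the highest value of its genotype at 23 of the 34 members. Its median deviation from the genotype mean was 0.15 over the members, against -0.07 and -0.09 on epiRIL12 arrays 1 and 2. Over all loci with an epiRIL12 mean of 6 to 9 the corresponding deviations were 0.02, -0.00 and -0.01. The members' SD over the 3 epiRIL12 arrays had a median of 0.20, from 0.079 to 0.82, against 0.14 over all loci with an epiRIL12 mean of 6 to 9. In Col the members' median SD was 0.25, against 0.21 over all loci with a Col mean of 4 to 6. A part of array 3 in the differences was not tested beyond leaving it out. That gave 38 loci by the same rule, 33 of them members. With an array fewer the demand on the gap between the groups is looser. The count therefore cannot show what array 3 contributed.

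Listed genes that maintain or counter silencing showed no called difference, and whether they act on the members was not tested. Of 20 measured genes for methylation and heterochromatin, 0 passed the limma test in either direction, and the median difference was -0.02. At an unadjusted p under 0.05 there were 2 of 20, beside 7.04% of all loci. The CG methyltransferase gene MET1 stood at 8.99 in epiRIL12 and 9.03 in Col (difference -0.03, SE 0.092). DDM1, a chromatin remodeller needed for transposon silencing, had a difference of 0.02 (SE 0.12), and the non-CG methyltransferase gene CMT3 one of -0.00 (SE 0.12). ROS1, which encodes a DNA glycosylase that removes methylation, had -0.37 (SE 0.15, limma adjusted p = 0.71). The lowest difference was that of NRPE1, a subunit of the plant polymerase that makes scaffold transcripts for methylation (-0.86, SE 0.16, limma adjusted p = 0.096).

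A list of 33 loci came from other work on silencing by methylation and from the symbols of the Sadhu family. Col means of those measured ran from 3.65 to 10.7, and many of the loci were not low in Col. Among these were SADHU1-1 (10.7), BNS (8.29), SADHU4-1 (7.91), PAI2 (7.82) and QQS (7.77). An uncalled locus of this list is therefore not always one that stayed silent. With limma, 3 of the 27 measured passed upward, 1 downward and 23 in neither direction, beside 0.89% of all loci upward and 0.0843% downward, and the median difference was -0.04. At an unadjusted p under 0.05 there were 7 of 27, in both directions, beside 7.04% of all loci. Among the falls was QQS (difference -1.41, SE 0.43, limma adjusted p = 0.48). The DNA transposon CACTA1 rose to 9.06 in epiRIL12, against 4.55 in Col (difference 4.52, SE 0.098, limma adjusted p = 7.6e-06). EVD rose to 10.2 in epiRIL12, against 4.16 in Col (difference 6.00, SE 0.26, limma adjusted p = 9.3e-05). The third was SADHU8-1, itself a member, and the called fall was that of ATCOPIA4. SADHU8-1 was chosen by this same contrast and EVD was set aside by name, so nothing is read from the counts. The other 11 measured Sadhu loci had differences from -0.60 to 0.37, and 0 of them passed. Only SADHU9-1, SADHU3-2, SADHU3-1 and SADHU5-2 among them had a Col mean under 6, so most were not low in Col. FWA, a flowering gene silenced by methylated repeats, stood at 4.49 in epiRIL12 and 4.46 in Col. SDC, an F-box gene silenced in the same way, stood at 5.13 in epiRIL12 and 5.48 in Col (difference -0.36, SE 0.28, limma adjusted p = 0.92).

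None of the tissue markers passed the test. The 4 leaf markers stood at 14.5 to 15.4 in epiRIL12 and 14.5 to 15.4 in Col, near the top of the arrays, with a median difference of -0.02. The 5 root markers stood at 4.92 to 9.20 in epiRIL12 and 4.96 to 9.10 in Col. The 3 flower markers had a median difference of 0.44, the 3 seed markers 0.19 and the 2 pollen markers 0.01, and with limma 0 of the 17 markers passed. At an unadjusted p under 0.05 the count was also 0, beside 7.04% of all loci.

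The authors' deposited table gives its own log2 difference for each locus, which runs epiRIL12 minus Col by comparison with the array values. In it the members' differences ran from 0.99 to 6.85, with a median of 2.59. Of the 34, 32 reached 1.5 and 33 had an unadjusted p under 0.05 in the authors' deposited table. The share of all loci under that p was not counted. The rule chose the members by this same contrast, so nothing is read from these counts. The authors' table comes from the same arrays and is no independent measurement.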

How the data were processed

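RNA of 3 epiRIL12 and 3 Col samples was measured on Affymetrix arrays. According to the labels, total RNA was cleared of rRNA, reverse transcribed from random hexamers, amplified and turned into double-stranded DNA for labelling. The authors deposited 1 log2 value per locus and array. The steps before deposit (background correction, normalization, probe summaries, genome build) were not given in the sources used here, so the values were used as deposited. The authors also deposited a log2 difference and a p-value per locus, whose test is not given.

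The value table numbers its loci, and it was joined by row order to the names in the authors' table. Pearson's r between differences was 0.967 in place and 0.166 when shifted by 1 row. Classes, symbols, lengths and overlaps came from NCBI RefSeq (TAIR10.1), which matched 29521 loci and not 149. Probe and gene sequences were not used here, so the planned sequence features were left out.

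A linear model with genotype as the factor and moderated errors was fitted to all 29670 loci (limma 3.58.1, R 4.3.3), with Benjamini-Hochberg adjustment over all loci and a threshold of 0.05. Errors are SDs of arrays or limma standard errors (SE). The number of arrays limits the precision. The fit was also run on simulated data with independent errors and known shifts. That checks the code only and cannot show whether these arrays are independent. Tables and plots used Python 3.11.15, pandas 2.3.3, numpy 2.4.6 and matplotlib 3.10.9.

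Members and lists were chosen with earlier results of these data known. Named with full values were the 12 members with the largest differences, the protein-coding ones, adjacent ones, those of largest and smallest epiRIL12 spread, those nearest to each limit, neighbours and listed genes past the test, and MET1, DDM1, CMT3, FWA, SDC and ROS1. Other members are given by their differences. AT2G15870, AT2G15940, ML3, RPP5, AT2G41590, AT4G22415, ACA4, AT1G49080, NRPE1, AT2G41570, AT3G27327 and the 3 arm loci of the turned rule were added after their values were seen. The alternatives were other limits, other normalizations, a filter, a trended fit, the replicate number as a block and leaving arrays out.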

Additional observations from a re-analysis of the deposited data

How the results depend on the processing

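The number of members was 33 to 40 under quantile normalization, median centring and with single arrays left out, 23 with a Col limit of 5, 39 with one of 7, 25 with a minimum difference of 2, and 58 with a minimum of 1, which lets in smaller differences by construction. Settings chosen after seeing the data gave 23 members without loci within 100 loci of a stretch and 37 without both arrays numbered 3. With fewer arrays the demand on the gap between the groups is looser, which by itself can raise the number of members. Members past the test numbered 26 to 29 with single arrays left out and 21 without both arrays numbered 3. Calls of AT2G03970, AT3G27327, AT4G15096 and AT5G36655 were each lost without at least 1 single array. Loci past the test upward numbered 141 without both arrays numbered 3 (197 to 220 with single arrays left out), with fewer samples. Falls numbered 10 to 19 with arrays left out, 11 at an adjusted p under 0.01 and 39 under 0.10. Neighbours past the test upward numbered 1 to 2 with arrays left out, 1 with the lowest 25% of loci left out, where AT2G41580 is not tested, 1 at an adjusted p under 0.01 and 4 with 3 loci on each side, where 1 also passed downward. Differences near 0 changed sign: CMT3 was 0.0092 after quantile normalization, DDM1 was -0.0042 after median centring, and with arrays left out CMT3 ranged between -0.078 and 0.090, DDM1 between -0.046 and 0.12, FWA between -0.043 and 0.14 and MET1 between -0.079 and 0.0024. With single arrays left out, AT2G15815, AT2G23710, AT4G22390 and AT5G36655 each left the set at least once, and AT2G23710 ranged between 0.96 and 1.87.

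Replicate numbers are shared by label only. Deviations from the genotype means correlated at -0.04, -0.07 and 0.13 between same-numbered arrays, against -0.09 to 0.12 between differently numbered ones. With 3 arrays per genotype, such values cannot show whether the numbers pair the samples. With the replicate block 27 members, 197 loci upward, 13 loci downward and 1 neighbour passed.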
